A study of Mus musculus with 8 samples.

Results

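The genes described here are 10 members of the Notch pathway and of the set of transcription factors that direct intestinal cells to a secretory fate. They are the secretory factors Atoh1, Spdef, Gfi1 and Foxa1, the Notch target Hes1, the ligands Dll1, Dll4 and Jag1, and the receptors Notch1 and Notch2. They were taken by gene name from a table of 16130 genes, each name matched 1 row, and all 10 were among the 14311 genes that had enough counts to be tested. The libraries were made from distal colon RNA of mice with the Tcf4Het/+ and ApcMin/+ alleles, which both groups carried. The 4 EE libraries came from animals kept for 4 months under enriched conditions, and the 4 NE libraries from animals kept as long in conventional cages without enrichment. ApcMin is a truncating allele of the tumour suppressor Apc that gives rise to intestinal adenomas, so the NE libraries are controls for housing and not for genotype. The labels give no age, sex, strain or tumour status and do not say that each library is a separate animal, so p-values measure the spread between these samples, which may be technical.

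Notch is a receptor that is cut when a ligand on a neighbouring cell binds it. The freed intracellular part joins the DNA-binding protein RBPJ and turns on target genes such as Hes1, a repressor of Atoh1. In the crypt, cells with active Notch keep Atoh1 off and become absorptive or stay progenitors, while cells that express Atoh1 also express Delta-like ligands, signal to their neighbours and become goblet, enteroendocrine or other secretory cells. Spdef and Gfi1 act downstream of Atoh1, and Foxa1 is a forkhead factor of goblet and enteroendocrine cells.

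The regions just before the transcription start are shown for 2 genes that stood lowest in the EE 3 library, Atoh1 and Spdef, and for 2 that stood highest in EE 3 or EE 4, Dll4 and Notch1. Each sequence is the 250 bases before the RefSeq start on GRCm38.p6, read 5′ to 3′ on the strand of the gene, and capitals mark the motif found there.
Atoh1: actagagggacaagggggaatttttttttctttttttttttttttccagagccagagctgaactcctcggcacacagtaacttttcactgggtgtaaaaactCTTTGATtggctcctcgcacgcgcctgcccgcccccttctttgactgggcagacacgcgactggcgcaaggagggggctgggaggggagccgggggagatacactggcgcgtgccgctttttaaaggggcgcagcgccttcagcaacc
Spdef: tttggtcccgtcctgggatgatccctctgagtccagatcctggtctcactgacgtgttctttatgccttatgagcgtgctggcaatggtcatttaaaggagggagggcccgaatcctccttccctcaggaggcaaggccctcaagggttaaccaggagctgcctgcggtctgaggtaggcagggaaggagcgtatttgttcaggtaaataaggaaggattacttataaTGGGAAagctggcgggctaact
Dll4: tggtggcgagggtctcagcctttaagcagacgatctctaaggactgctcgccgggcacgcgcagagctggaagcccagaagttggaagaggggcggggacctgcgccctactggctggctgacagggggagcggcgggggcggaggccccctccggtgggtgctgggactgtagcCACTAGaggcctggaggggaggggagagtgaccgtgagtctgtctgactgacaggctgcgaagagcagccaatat
Notch1: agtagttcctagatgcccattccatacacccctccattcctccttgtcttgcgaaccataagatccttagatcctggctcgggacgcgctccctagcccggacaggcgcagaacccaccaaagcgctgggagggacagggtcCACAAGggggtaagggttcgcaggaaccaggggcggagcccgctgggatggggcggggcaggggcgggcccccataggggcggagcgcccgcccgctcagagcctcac
These lie at chr6:64728875-64729124 (plus strand), chr17:27728952-27729201 (minus), chr2:119325534-119325783 (plus) and chr2:26503823-26504072 (minus). Both strands were searched for the RBPJ core TGGGAA, the N-box CACNAG bound by Hes proteins, the TCF core CTTTGAT and the E-box CANNTG bound by proteins such as ATOH1, and the last 2 were added after the sequences had been seen. Windows were matched for 9 of the 10 genes, with Hes1 the exception, and gave 11 windows because Gfi1 and Dll1 have more than 1 start. The RBPJ core stood in 1 of them, that of Spdef, 22 to 17 bases before the start (positions -22 to -17). The TCF core stood in 1, that of Atoh1, at positions -148 to -142. The N-box stood in 3, at -75 to -70 in Dll4, at -108 to -103 in Notch1, and in Notch2. The E-box stood in 6 windows, of Gfi1, Foxa1, Dll1 and Jag1. Of 32851 windows of the same length over all genes, 21.6% held the RBPJ core, 36.7% the N-box, 3.2% the TCF core and 66.2% the E-box. These matches describe the letters only.

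Depth and the tissue were checked first. Total counts ran from 4735764 to 10586851 per library, and the 10 genes had between 26 counts (Dll1 in EE 1) and 1036 counts (Notch2 in NE 3). All 12 epithelial, all 12 goblet cell and all 12 colonocyte markers had counts in every library. In EE 4 the summed level of 12 smooth muscle markers was 717 CPM (the read count scaled by the adjusted library size), against 2431 to 4594 CPM in the other EE libraries and 3682 to 5937 CPM in NE. Epithelial markers, led by Lgals4, summed to 11560 CPM in EE 3 and to 12590 CPM in EE 4, while the other 6 libraries held 14910 to 18720 CPM. The markers did not all go one way. In EE 4, 8 of the 12 lay below every NE library, while Cdh1 (1299 CPM), Krt18 (861 CPM) and Elf3 (389 CPM) lay above. In EE 3, Cdh1, Krt18 and Elf3 lay within the NE range. In bulk tissue, fewer cells of a type and less RNA per cell cannot be told apart. In the authors' deposited table the log2 fold change had the sign opposite to the one used here, EE minus NE, for 97.8% of the 14311 tested genes and for all 10 members. EE and NE refer to the libraries as labelled.

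The secretory factors Atoh1, Spdef and Gfi1 and the ligand Dll1 had lower means in EE, with log2 fold changes of −0.50 to −0.36. The factor Foxa1, the target Hes1, the ligand Dll4 and the receptors Notch1 and Notch2 had higher means, with log2 fold changes of 0.20 to 0.45, and the ligand Jag1 was nearly level. None of these differences passed the test. With edgeR's quasi-likelihood test and Benjamini-Hochberg adjustment over all genes, 0 of the 10 had an adjusted p under 0.05, and so did 0 of all 14311 genes (0.00%). Over all genes 1357 had an unadjusted p under 0.05, and DESeq2 called 12 and limma-voom 0. At an unadjusted p under 0.05, Atoh1 was lower (1 of 10, against 3.75% of all genes) and Foxa1 higher (1 of 10, against 5.73%). DESeq2 called 0 of the 10, with 2 at an unadjusted p under 0.05, and limma-voom called 0, with 3. In none of the 10 did the 4 EE values stand clear of the 4 NE values, where 2.87% of all genes were clear and higher in EE and 2.02% clear and lower. In the authors' deposited table, where 2.39% of the 16130 genes had an FDR under 0.05, the lowest FDR of the 10 was 0.203, for Atoh1.

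**Figure D1:**
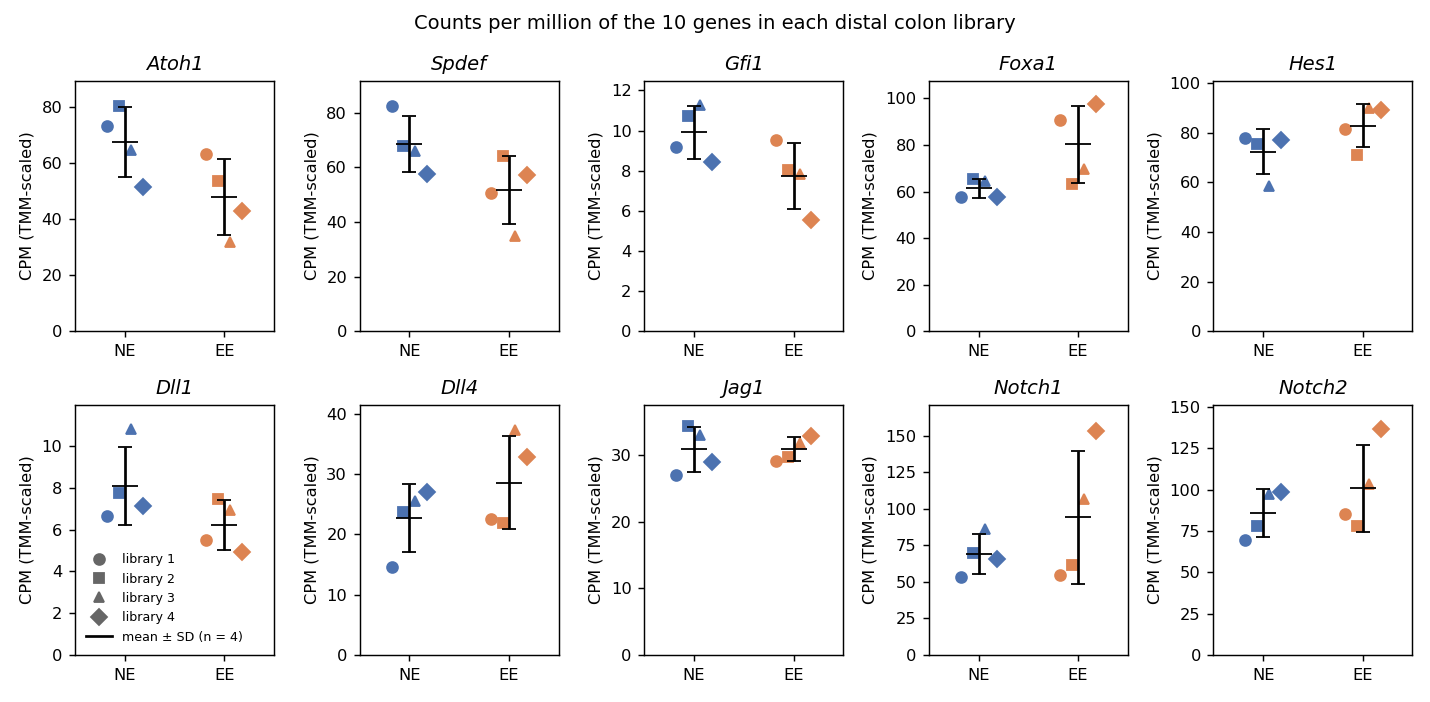
CPM of each of the 10 genes (vertical axes, from 0) in the 4 NE (blue) and 4 EE (orange) libraries, with marker shapes for libraries 1 to 4 and black bars for the mean ± SD. In every gene the range of the EE values overlaps the range of the NE values. EE 3 and EE 4 hold the lowest values of Atoh1 and the highest values of Dll4 and Notch1.

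Among the secretory factors, Atoh1, the basic helix-loop-helix factor that secretory cells of the intestine need, showed the lowest mean relative to NE. It lies on chromosome 6 (64729125 to 64731245 on GRCm38) as a single exon. Its level was 73.3, 80.1, 64.6 and 51.4 CPM in NE 1 to NE 4 and 63.3, 53.4, 31.7 and 42.97 CPM in EE 1 to EE 4. EE 3 and EE 4 lay below every NE library, and EE 1 and EE 2 lay within the NE range. The means were 67.3 ± 12.4 and 47.8 ± 13.6 CPM (SD, n = 4 each), and the log2 fold change was −0.50 (SE 0.21, 95% interval −0.97 to −0.03, edgeR adjusted p = 0.520). Without EE 3 the log2 fold change was −0.34.

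Spdef, an ETS factor needed for goblet cell maturation (chromosome 17, 27714352 to 27728955, minus strand), was at 82.4, 67.7, 66.1 and 57.7 CPM in NE 1 to NE 4. In EE 1 to EE 4 it was at 50.5, 64.3, 34.9 and 57.1 CPM. As with Atoh1, EE 3 was the lowest library, and EE 2 lay within the NE range. EE 1 and, by less than 1 CPM, EE 4 lay below the NE values. On the log2 scale EE differed by −0.41 (SE 0.19, 95% interval −0.82 to 0.01, edgeR adjusted p = 0.520), and it was −0.25 without EE 3.

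Gfi1, a zinc finger repressor downstream of Atoh1 (chromosome 5, 107716657 to 107726036, minus strand), was the least abundant of the 4 factors. It was at 9.16, 10.75, 11.3 and 8.45 CPM in NE 1 to NE 4 and at 9.56, 8.04, 7.86 and 5.55 CPM across EE 1 to EE 4. EE 2, EE 3 and EE 4 lay below the NE range and EE 1 within it, and here the lowest library was EE 4. EE minus NE was −0.36 on the log2 scale (SE 0.21, 95% interval −0.84 to 0.11, edgeR adjusted p = 0.556). Its mean count in EE was 43.5, for which counting alone gives a coefficient of variation of 15.2%, and the observed one was 21.3%. In NE the mean count was 76.0, with 11.5% from counting and 13.3% observed. Without EE 4 the log2 fold change was −0.23.

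Foxa1 (chromosome 12, 57540628 to 57546916, minus strand) went the other way from the other 3 factors. It was at 57.8, 65.5, 64.5 and 57.5 CPM in NE 1 to NE 4, a coefficient of variation of 6.94%, and at 90.7, 63.4, 69.5 and 97.5 CPM across EE 1 to EE 4. The highest values were in EE 4 and EE 1, EE 3 lay just above the NE range, and EE 2 lay within it. The means were 61.3 ± 4.26 and 80.3 ± 16.4 CPM, and the log2 fold change was 0.39 (SE 0.15, 95% interval 0.05 to 0.72, edgeR adjusted p = 0.520). With single libraries left out it ran from 0.28 without EE 4 (edgeR unadjusted p = 0.0669) to 0.48 without EE 2 (edgeR unadjusted p = 0.00717). Without EE 1 it was 0.33 (edgeR unadjusted p = 0.0780).

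Hes1, the repressor induced by Notch (chromosome 16, 30064384 to 30067796), was the member whose level varied least in EE after Jag1, with a coefficient of variation of 10.7%. It was at 77.8, 75.3, 58.7 and 77.1 CPM in NE 1 to NE 4 and at 81.5, 70.8, 89.9 and 88.9 CPM across EE 1 to EE 4. NE 3 stood well below the other NE libraries, and EE 3 and EE 4 were the highest of all. The difference was 0.20 on the log2 scale (SE 0.13, 95% interval −0.09 to 0.49, edgeR adjusted p = 0.589). Without NE 3 it was 0.11.

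Because a ratio of 2 genes within a library does not depend on how libraries are scaled, Atoh1 was set against Hes1. The log2 ratio of Atoh1 to Hes1, from CPM with no correction for length, was −0.09, 0.09, 0.14 and −0.58 in NE 1 to NE 4. In EE 1 to EE 4 it was −0.37, −0.41, −1.5 and −1.05. EE 3 and EE 4 lay below every NE library, EE 1 and EE 2 lay above NE 4, and the means differed by −0.72 (NE −0.11 ± 0.33, EE −0.83 ± 0.55, SD, n = 4 each). The mean log2 ratios of Spdef, Gfi1 and Dll1 to Atoh1 differed between the groups by 0.09, 0.15 and 0.15, against SDs of 0.19 to 0.56 within groups. Single libraries moved these differences. That of Spdef ran from 0.00 without NE 2 or without EE 4 to 0.24 without EE 1. For Gfi1 it was −0.05 without EE 3 and 0.26 without EE 4, and for Dll1 −0.09 without EE 3 and 0.35 without EE 1.

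Goblet cell, colonocyte and crypt stem cell markers varied over the same libraries. The 12 goblet cell markers, led by the mucus protein gene Fcgbp, summed to 24150 to 30210 CPM in NE and to 16820, 28250, 11440 and 16370 CPM in EE 1 to EE 4, and all 12 had negative log2 fold changes (median −0.43). The median was −0.24 without EE 3, −0.27 without EE 4 and −0.26 under scaling to epithelial markers, where all tested genes had a median of 0.20. All tested markers of some other lists were negative too, 12 for colonocytes, 11 for enteroendocrine cells, 12 for smooth muscle, 9 for pericytes, 9 for B cells and 10 for macrophages. Atoh1 and Spdef and the goblet cell sum were thus all lowest in EE 3. The 12 colonocyte markers summed to 13720 to 19680 CPM in NE and to 13970, 19760, 7533 and 7058 CPM in EE, so markers of mature absorptive cells were low in EE 3 and EE 4 as well. The 12 crypt stem cell markers, led by Slc12a2, summed to 1848 to 2033 CPM in NE and to 2264, 1855, 2458 and 2982 CPM in EE. Of these 12, 11 had positive log2 fold changes and 1, Rgmb, a negative one (median 0.39, with Slc12a2 itself at 0.10). The 11 tested enteroendocrine markers summed to 424 to 608 CPM in NE and to 265 to 449 CPM in EE, and the 7 tested tuft cell markers to 131 to 158 and 123 to 176 CPM. The part of these cell types in the values of the 10 genes was not tested.

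**Figure D2:**
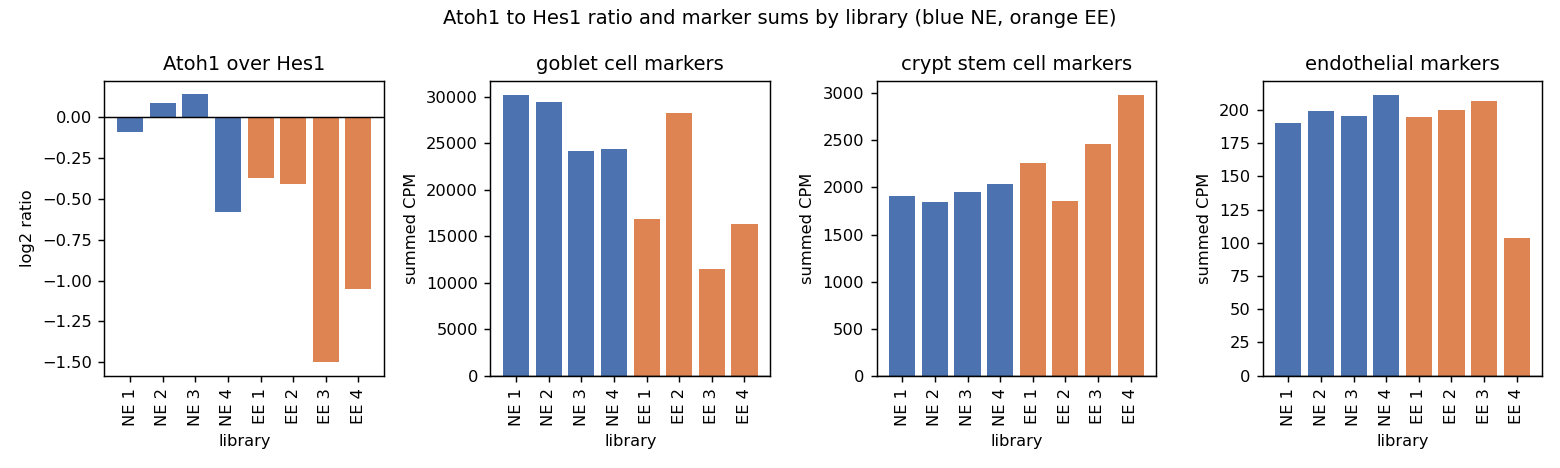
Log2 ratio of Atoh1 to Hes1 (left) and summed CPM of the goblet cell, crypt stem cell and endothelial marker lists in each library, with NE in blue and EE in orange. The ratio is lowest in EE 3 (−1.5) and EE 4 (−1.05), where the crypt stem cell sum is highest (2458 and 2982 CPM), and the endothelial sum is lowest in EE 4 (103.5 CPM).

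Of the ligands, Dll1, which secretory precursors present to their neighbours (chromosome 17, 15367354 to 15376872, minus strand), was the scarcest. It was at 6.63, 7.74, 10.79 and 7.13 CPM in NE 1 to NE 4 and at 5.52, 7.46, 6.95 and 4.92 CPM across EE 1 to EE 4. EE 1 and EE 4 lay below the NE range, and EE 2 and EE 3 within it. The log2 fold change was −0.39 (SE 0.24, 95% interval −0.92 to 0.14, edgeR adjusted p = 0.568), and it was −0.20 without NE 3, the highest library. The mean count in EE was 35.5, for which counting alone gives a coefficient of variation of 16.8%, and the observed one was 19.2%. In NE the mean count was 63.5, with 12.6% from counting and 23.2% observed.

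Dll4, a ligand of crypt cells and also of sprouting endothelium (chromosome 2, 119325784 to 119335962), lay in the opposite direction to Dll1. It was at 14.5, 23.8, 25.5 and 27.0 CPM in NE 1 to NE 4 and at 22.5, 21.8, 37.3 and 32.8 CPM across EE 1 to EE 4. EE 3 and EE 4 lay above every NE library and NE 1 was the lowest. For EE minus NE the log2 difference was 0.34 (SE 0.24, 95% interval −0.19 to 0.86, edgeR adjusted p = 0.607), and it was 0.17 without NE 1 and 0.20 without EE 3. The 12 endothelial markers, led by Pecam1, summed to 190 to 211 CPM in NE and to 194.5, 199.8, 206.8 and 103.5 CPM in EE 1 to EE 4. In EE 4, 10 of the 12 lay below every NE library, while Cdh5 (23.9 CPM) and Flt1 (22.7 CPM) lay within the NE range, and the endothelial receptor Notch4, at 23.5 CPM, lay above it. The part of endothelial cells in the Dll4 values was not tested. The log2 ratio of Dll4 to Atoh1 was −1.49, −1.29, 0.23 and −0.39 in EE 1 to EE 4, and the NE libraries lay between −2.33 and −0.93. EE 3 and EE 4 thus lay above every NE library, while EE 1 and EE 2 lay within the NE range.

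Jag1, a ligand of the other class (chromosome 2, 137081456 to 137116644, minus strand), showed the narrowest range relative to its level. It was at 27.0, 34.4, 32.9 and 29.0 CPM in NE 1 to NE 4 and at 29.1, 29.7, 31.9 and 32.8 CPM across EE 1 to EE 4. All 4 EE libraries lay within the NE range. The log2 fold change was 0.00 (SE 0.13, edgeR adjusted p = 0.998), with a 95% interval of −0.28 to 0.28 that leaves room for a difference of that size in either direction. Under scaling to epithelial markers it was 0.20, and so was the median of all tested genes.

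The receptor Notch1 (chromosome 2, 26457903 to 26516663, minus strand) had the widest spread of the 10 genes in EE, with a coefficient of variation of 48.5% against 19.7% in NE. It was at 53.5, 69.8, 86.3 and 65.8 CPM in NE 1 to NE 4 and at 54.8, 61.8, 106 and 153 CPM across EE 1 to EE 4. EE 4 and EE 3 lay above every NE library, and EE 1 and EE 2 lay in the lower part of the NE range. The log2 fold change of 0.45 (SE 0.30, 95% interval −0.22 to 1.12, edgeR adjusted p = 0.592) rested largely on EE 4, without which it was 0.12. Notch1 is also expressed by endothelial and T cells. The 10 tested T cell markers, led by Lck, summed to 41.0 to 56.0 CPM in NE and to 28.5, 45.6, 51.7 and 28.7 CPM in EE 1 to EE 4. In EE 4, 8 of the 10 lay below every NE library and Zap70 (7.29 CPM) and Trac (5.71 CPM) lay above. The part of these cells in the Notch1 values was not tested.

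Notch2 (chromosome 3, 98013527 to 98150361), which acts together with Notch1 in the crypt, followed the same order of libraries at the top. It was at 69.6, 77.97, 97.2 and 98.6 CPM in NE 1 to NE 4 and at 85.2, 77.9, 103 and 137 CPM across EE 1 to EE 4. EE 4 and EE 3 were again the only libraries above the NE range. The log2 fold change was 0.23 (SE 0.19, 95% interval −0.19 to 0.65, edgeR adjusted p = 0.644) and 0.06 without EE 4. The log2 ratio of Notch2 to Notch1 was 0.16 to 0.58 in NE and 0.64, 0.33, −0.04 and −0.16 in EE 1 to EE 4. EE 3 and EE 4 thus held more Notch1 per Notch2 than any NE library, while EE 1 held less. The means were 0.32 ± 0.20 in NE and 0.19 ± 0.36 in EE.

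**Figure D3:**
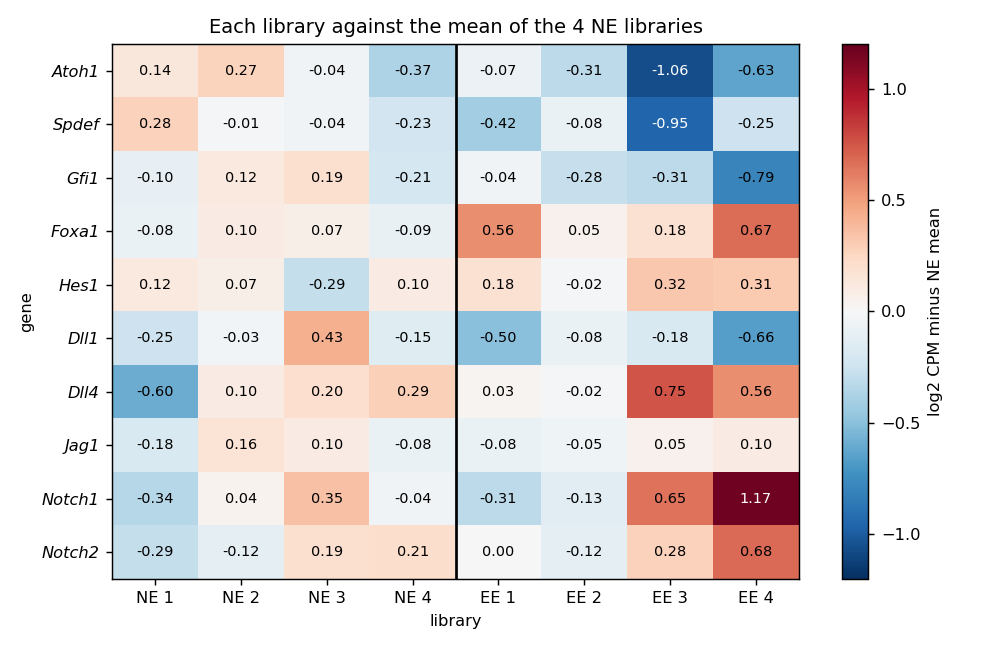
Difference in log2 CPM (colour and printed value) between each library and the mean of the 4 NE libraries, for the 10 genes in rows and the 8 libraries in columns. EE 3 and EE 4 carry the lowest Atoh1 (−1.06 and −0.63) and the highest Notch1 (0.65 and 1.17), while EE 2 stays within −0.31 to 0.05 in every gene.

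The plot by library shows that the EE libraries were not alike. EE 2 lay between −0.31 and 0.05 of the NE mean in all 10 genes on the log2 scale, whereas EE 3 ran from −1.06 for Atoh1 to 0.75 for Dll4 and EE 4 from −0.79 for Gfi1 to 1.17 for Notch1. EE 1 combined low Dll1 (−0.50) and Spdef (−0.42) with high Foxa1 (0.56) and had a Notch1 level (−0.31) in the lower part of the NE range. EE 4 is the library with the low smooth muscle sum, and EE 3 and EE 4 are those with the low epithelial sums.

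**Figure D4:**
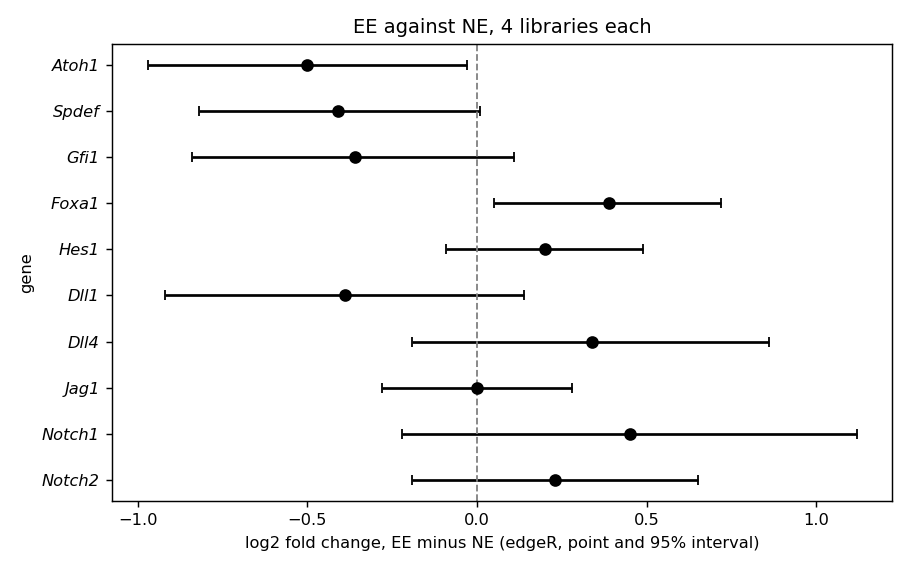
Log2 fold change of each gene, EE minus NE, with its 95% interval from the edgeR fit of 4 against 4 libraries. Only the intervals of Atoh1 (−0.97 to −0.03) and Foxa1 (0.05 to 0.72) leave out 0, and neither gene passes adjustment over all genes.

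Levels of different genes were compared per kilobase of merged exon length. Hes1 stood first in NE, at 35.5 ± 4.47 CPM per kilobase (SD, n = 4), followed by Atoh1 at 31.8 ± 5.84 and Spdef at 29.7 ± 4.46. The ranges of these neighbours overlapped. Foxa1 came next at 18.4 ± 1.28 CPM per kilobase, below every Spdef value and above every value of Notch2, at 7.96 ± 1.33. Dll4, Jag1 and Notch1 followed at 5.90 ± 1.46, 5.29 ± 0.588 and 4.84 ± 0.952, and the ranges of Notch2, Dll4, Jag1 and Notch1 each overlapped the next. Gfi1 at 3.11 ± 0.414 and Dll1 at 1.91 ± 0.443 CPM per kilobase stood last, and their ranges did not overlap each other. In EE, Hes1 at 40.7 ± 4.33 CPM per kilobase was again first and no longer overlapped the next gene, now Foxa1 at 24.1 ± 4.93, whose range overlapped those of Atoh1 (22.6 ± 6.40) and Spdef (22.4 ± 5.44). Notch2, Dll4, Notch1 and Jag1 stood at 9.35 ± 2.43, 7.43 ± 1.99, 6.61 ± 3.20 and 5.30 ± 0.304, and Gfi1 (2.43 ± 0.519) and Dll1 (1.47 ± 0.283) now overlapped. These levels assume that reads fell evenly on all annotated exons, and the merged length of 14.23 kilobases for Notch1, the longest here, includes exons of every annotated transcript.

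Reads from overlapping genes may enter some values. The sources used here do not say whether counting used the strand. Dll4 overlaps the antisense gene Gm14207, which had 24 to 80 counts per library, and Dll1 overlaps A930024N18Rik, with 1 to 15 counts. Gfi1 overlaps 1 and Notch1 overlaps 2 annotated antisense genes not analysed here. On the same strand, Notch1 overlaps 1 annotated gene (Mir6996) and Notch2 overlaps 2 (Gm42819 and Gm42820), also not analysed here.

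The genes most like Atoh1 across the 8 libraries were found among 12097 genes with a mean of at least 5 CPM, by the root mean square difference of log2 CPM centred on each gene's mean. The nearest were the lysosomal sulfatase gene Arsa (0.07), the MYC antagonist Mxd1 (0.08), Leng9 (0.09), the acyl-CoA dehydrogenase gene Acad11 (0.09) and the potassium channel gene Kcnma1 (0.09). Mxd1 averaged 496 ± 92.2 CPM under conventional and 340 ± 97.4 CPM under enriched housing. Without EE 4 these 5 genes held ranks 4, 9, 8, 17 and 15. Of the other members, Spdef came nearest to Atoh1, at rank 452 (0.23), and Gfi1 followed at rank 1161 (0.29). Notch1 lay farthest, at rank 11486 (0.81). These distances are a description over libraries that share 1 scaling. The 5 genes were picked as the nearest of 12097, so some nearness comes from the picking. The ranks without EE 4 use the remaining libraries again and are no independent check.

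The remaining genes of the pathway and of the fate decision were read from 7 lists that together hold 92 genes, of which 73 were tested. Of these, 43 had positive and 30 negative log2 fold changes, with a median of 0.06, where all tested genes had a median of 0.00. By edgeR's quasi-likelihood test 0 of the 73 had an adjusted p under 0.05 (lowest 0.520). At an unadjusted p under 0.05 there were 8 higher and 4 lower, 16.4% of the 73, where 9.48% of all genes passed. DESeq2 and limma-voom called 0 of them and had 12 and 11 at an unadjusted p under 0.05. With single libraries left out, the number by edgeR at that p ran from 5 (without NE 1) to 20 (without EE 2). Over all genes it was then 665 and 2745, against 1357 with every library. The lists were chosen with earlier results of these data known, so their share is a description only. In each list up to 2 genes with the smallest p are given below as values.

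The other receptors and ligands had 4 tested genes, 3 higher and 1 lower in EE, with a median log2 fold change of 0.27 that was 0.06 without EE 4. Jag2, the other ligand of the Jagged class, averaged 7.02 ± 1.02 CPM under conventional and 12.8 ± 5.05 CPM under enriched housing, with a log2 difference of 0.86 (SE 0.30, edgeR adjusted p = 0.520). Notch4, an endothelial receptor, averaged 10.96 ± 0.630 and 13.8 ± 6.97 CPM. Notch3, a receptor of mural cells, had a log2 fold change of −0.16.

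Among genes for sugar transfer to Notch, ligand activity and receptor trafficking, 17 were tested, with 9 higher, 8 lower and a median of 0.00. Dtx1, a ubiquitin ligase that binds Notch, averaged 3.62 ± 1.86 CPM under conventional and 1.63 ± 0.839 CPM under enriched housing. Furin, the protease that cuts the Notch precursor, averaged 91.3 ± 10.6 and 127 ± 38.8 CPM. Of the 8 tested genes for the cleavage of the bound receptor, 3 were higher and 5 lower (median −0.16, and 0.02 under scaling to epithelial markers). Under that scaling all tested genes had a median of 0.20. The sheddase Adam10 averaged 282 ± 32.5 CPM under conventional and 350 ± 33.8 CPM under enriched housing, and the gamma-secretase subunit Ncstn 204 ± 13.5 and 232 ± 15.4 CPM.

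In the nuclear complex that RBPJ forms with its partners, 8 of 10 genes were higher in EE and 2 lower, with a median log2 fold change of 0.24 that was 0.05 without EE 4. The corepressor Spen averaged 55.8 ± 7.46 CPM under conventional and 76.6 ± 29.3 CPM under enriched housing. Rbpj itself had a log2 fold change of 0.17 (SE 0.15). Of 13 further genes listed as Notch targets 7 were tested, 4 higher and 3 lower. Their median was 0.20, which was −0.04 without EE 4 and −0.10 with no filter on low counts. The higher were Myc (0.56), Bhlhe40 (0.34), Hes6 (0.29) and Ccnd1 (0.20). The lower were Hes2 (−0.93), Hey1 (−0.13) and Nrarp (−0.07), with Hes2 at means of only 2.36 CPM in NE and 1.22 CPM in EE. Myc, also a Wnt target, averaged 55.6 ± 5.51 CPM under conventional and 82.1 ± 24.5 CPM under enriched housing, and the repressor Bhlhe40 140 ± 19.7 and 178 ± 20.8 CPM. Nrarp, a feedback inhibitor of Notch, averaged 15.4 ± 4.97 and 14.6 ± 3.15 CPM.

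The other regulators of secretory cells had 16 tested of 25, with 11 higher, 5 lower and a median log2 fold change of 0.08. Id2, an inhibitor of helix-loop-helix factors, averaged 54.4 ± 3.47 CPM under conventional and 74.4 ± 7.82 CPM under enriched housing and had the smallest unadjusted p of the 73 genes, 0.00271 (edgeR adjusted p = 0.520). Creb3l4, a membrane-bound transcription factor, averaged 50.6 ± 4.38 and 37.7 ± 6.33 CPM. Xbp1, the factor that expands the secretory apparatus and which was named after its values were seen, averaged 324 ± 18.8 and 263 ± 23.9 CPM. The 4 EE libraries stood clear of the 4 NE libraries in these 3 genes, Id2 above and the others below. They were the only such genes of the 73, 4.11%, where 4.89% of all genes were clear in either direction, so that share is no higher than the background. The goblet cell factors Foxa3, Creb3l1 and Klf4, which also were named after their values were seen, differed by −0.08 (SE 0.16), 0.04 (SE 0.25) and −0.31 (SE 0.24) on the log2 scale.

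Regulators of absorptive cells and of colon identity had 11 tested genes, 5 higher and 6 lower, with a median of −0.06. It was 0.10 without EE 3 and −0.18 without EE 4. Under scaling to epithelial markers it was 0.13, where all tested genes had a median of 0.20. Prdm1, a repressor that delays maturation of the early intestinal epithelium and also drives plasma cells, averaged 16.1 ± 3.04 CPM under conventional and 22.8 ± 5.12 CPM under enriched housing. The homeobox factor Cdx2 averaged 117 ± 21.5 and 83.6 ± 30.5 CPM, with a log2 difference of −0.49 (SE 0.25, edgeR adjusted p = 0.531) as large as that of Atoh1.

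**Figure D5:**
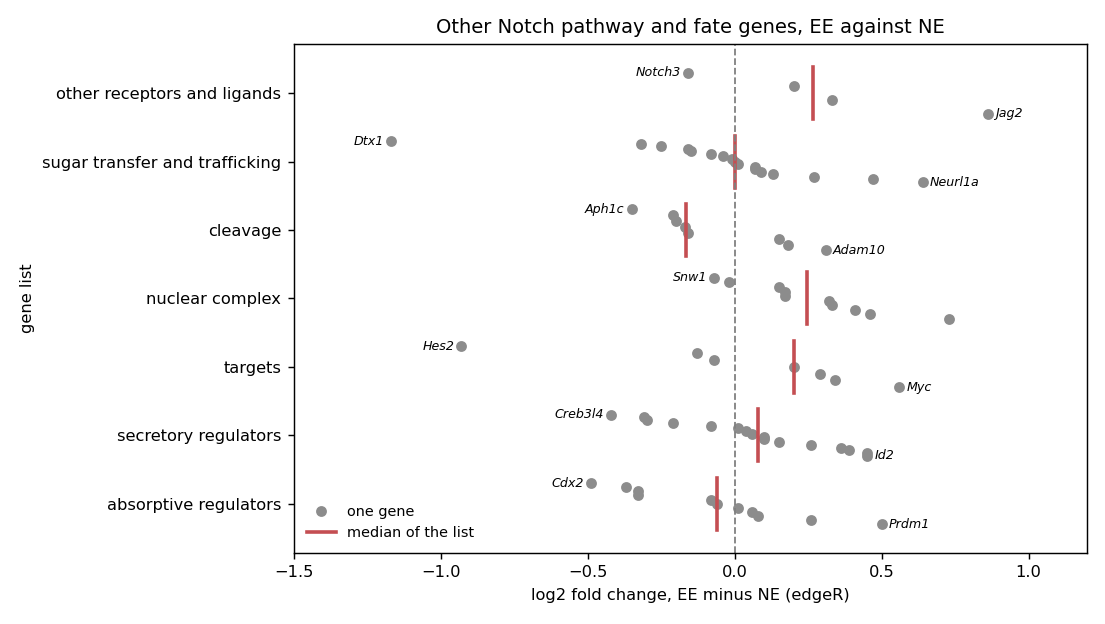
Log2 fold change, EE minus NE, of each tested gene (grey points) in the 7 lists, with the list median (red line) and the lowest and, in most lists, the highest gene named. The medians run from −0.16 for the cleavage genes to 0.27 for the other receptors and ligands, and no gene passes adjustment over all genes.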

How the data were processed

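Per the labels' protocols, total RNA was depleted of ribosomal RNA, made into stranded libraries and read as single ends on an Illumina HiSeq. Novoalign 2.08.01 and DESeq 1.14.0 are named in the submitters' processing notes. The counting program is not given in the sources used here. The authors deposited raw read counts per gene. Beside them stand, per the file headers, their own log2 fold change and adjusted p-value (headed FDR). Groups and replicate numbers came from the sample titles.

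Counts were tested in R 4.3.3 with edgeR 4.0.16: filterByExpr, TMM scaling and a quasi-likelihood test with robust settings, adjusted by Benjamini and Hochberg over 14311 genes and a threshold of 0.05. The log2 CPM used a prior count of 2. On counts simulated for EE against NE over 14311 genes, edgeR recovered 60 of 100 genes changed 2-fold and 89 of 100 changed 4-fold, with 9 false calls. Positions and exon lengths are from GENCODE M21 (GRCm38, the same build as mm10), and promoter sequences from RefSeq on GRCm38.p6.

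The members and lists were chosen with earlier results of these data known. The rule for named genes took the 10 members, the 2 genes with the smallest p in each pathway list where none passed, and the 5 genes nearest to Atoh1. Of the genes taken by this rule, 1 is not reported here. Other genes are said to have been named after their values were seen, or serve to show where a list or sum lies. Alternatives were DESeq2 1.42.0, limma-voom (limma 3.58.1), RLE, upper-quartile and epithelial marker scaling, 2 other filters, a replicate block and each library left out.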

Additional observations from a re-analysis of the deposited data

Results flagged for a closer look

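Hes1 in NE 3, at 58.66 CPM, stood apart from the other 3 NE libraries (75.3 to 77.8 CPM) by more than Dixon's 95% critical value for 4 samples allows. It was the 1 case among the 20 sets of 4 values examined (10 genes in 2 groups), and chance gives about 1 in 20. NE 3 is the library with the most counts, 625 of them for Hes1.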

How the results depend on the processing

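Under all 16 alternatives 0 of the 10 genes and 0 of the pathway genes passed the threshold, and the lowest adjusted p of any of the 10 was 0.152 (without EE 2). Over all genes the count past the threshold was 12 with DESeq2, and 0 to 1 when single libraries were left out (1 without EE 2). Every gene but Jag1 kept the sign of its log2 fold change under all 16. Jag1, at 0.00, was at −0.01 with upper-quartile scaling and ran from −0.06 to 0.06 with single libraries left out, among them −0.06 without NE 1, −0.03 without NE 4, 0.00 without EE 3 and −0.02 without EE 4. Scaling to the epithelial markers moved the median of all genes by 0.20 and the split at an unadjusted p under 0.05 from 820 higher and 537 lower to 1128 and 225. It gave −0.35 for Atoh1, −0.23 for Spdef, −0.19 for Gfi1, −0.20 for Dll1, 0.58 for Foxa1, 0.42 for Hes1, 0.56 for Dll4, 0.72 for Notch1, 0.45 for Notch2 and 0.20 for Jag1. The list medians were then 0.49 for the other receptors and ligands, 0.45 for the nuclear complex and 0.43 for the targets. They were 0.29 for the secretory regulators and 0.23 for sugar transfer and trafficking. The distance from Atoh1 to its nearest gene was 0.06 without EE 4. With the replicate number as a block 0 genes passed, and Atoh1 was at −0.52 and Notch1 at 0.35. Same-numbered libraries were not shown to be pairs: the correlations of their deviations from the group means were 0.25, 0.01, −0.18 and −0.04, and 1 of the 4 NE libraries correlated best with its own number. Counts of 26 to 120 limit the precision for Dll1 and Gfi1.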
